A study of Mus musculus with 16 samples.

Results

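This comparison set the cerebral cortex of mice heterozygous for Dyrk1a (Dyrk1a+/-) against that of wild-type mice (Dyrk1a+/+) at postnatal day 7 (P7). Its members were the 8 arrays that the sample titles give as P7 cortex, 4 of each genotype, out of 16 arrays in the series. The other 8 arrays hold the same genotypes at postnatal day 0 (P0, the day of birth), again 4 of each. Every array is described as RNA of 1 mouse and as a biological replica, numbered 1 to 4 within its group. The nature of the inactivated allele, the strain, the sex and the litter of the pups could not be read from the labels, so p-values measure only the spread between these mice. RNA was measured on the Affymetrix mouse GeneChip named in the labels, whose probe sets each report 1 transcript or a few transcripts of a gene as a log2 level.

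DYRK1A is a protein kinase of the cytoplasm and nucleus whose gene dose matters for brain growth: loss of 1 copy causes microcephaly with intellectual disability in people, and an extra copy is carried in Down syndrome. It phosphorylates cyclin D proteins, which marks them for degradation and favours exit from the cell cycle, and it phosphorylates LIN52, a step in assembling the DREAM complex that silences cell cycle genes. It also phosphorylates NFAT transcription factors, which opposes calcineurin. The first postnatal week of the mouse cortex is a time when interneurons settle and mature, astrocytes multiply, microglia spread and the first oligodendrocytes begin to make myelin.

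All 8 arrays had medians between 5.84 and 5.86 and correlated with each other at r between 0.979 and 0.995 across the 12801 genes tested. An array has no read depth, and with 4 arrays a group it is their number that limits the precision. Replicates 1 and 2 of both genotypes differed from replicates 3 and 4. These are called the first and the second array batch, a name given here for a split whose origin is unlabelled. The cortical markers Emx1 (log2 7.58 to 8.11), Tbr1 (7.95 to 8.37), Neurod6 (9.98 to 10.68) and Camk2a (10.01 to 10.48) were present on every array. The Y-linked gene Eif2s3y was high on wild-type replicate 3 and heterozygous replicates 1 and 4 and low on the other 5. Xist, which is expressed in females, was at 5.50 to 6.57 on those 3 arrays and at 11.86 to 12.18 on the other 5. By these 2 genes the 3 arrays came from males and the other 5 from females, so sex was not balanced between the genotypes. Heterozygous replicate 3 stood apart for markers of the olfactory bulb: the mitral cell gene Cdhr1 was at log2 9.36 there and between 7.42 and 7.81 on the other 7 arrays, and Tbx21 was at 5.46 there and at most 4.21 elsewhere. The thalamic marker Tcf7l2 also varied between pups of both genotypes, from 7.00 to 8.90 in wild type and from 6.95 to 8.94 in heterozygotes. Wild-type replicate 3 and heterozygous replicates 2 and 4 were the low ones.

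**Figure D1:**
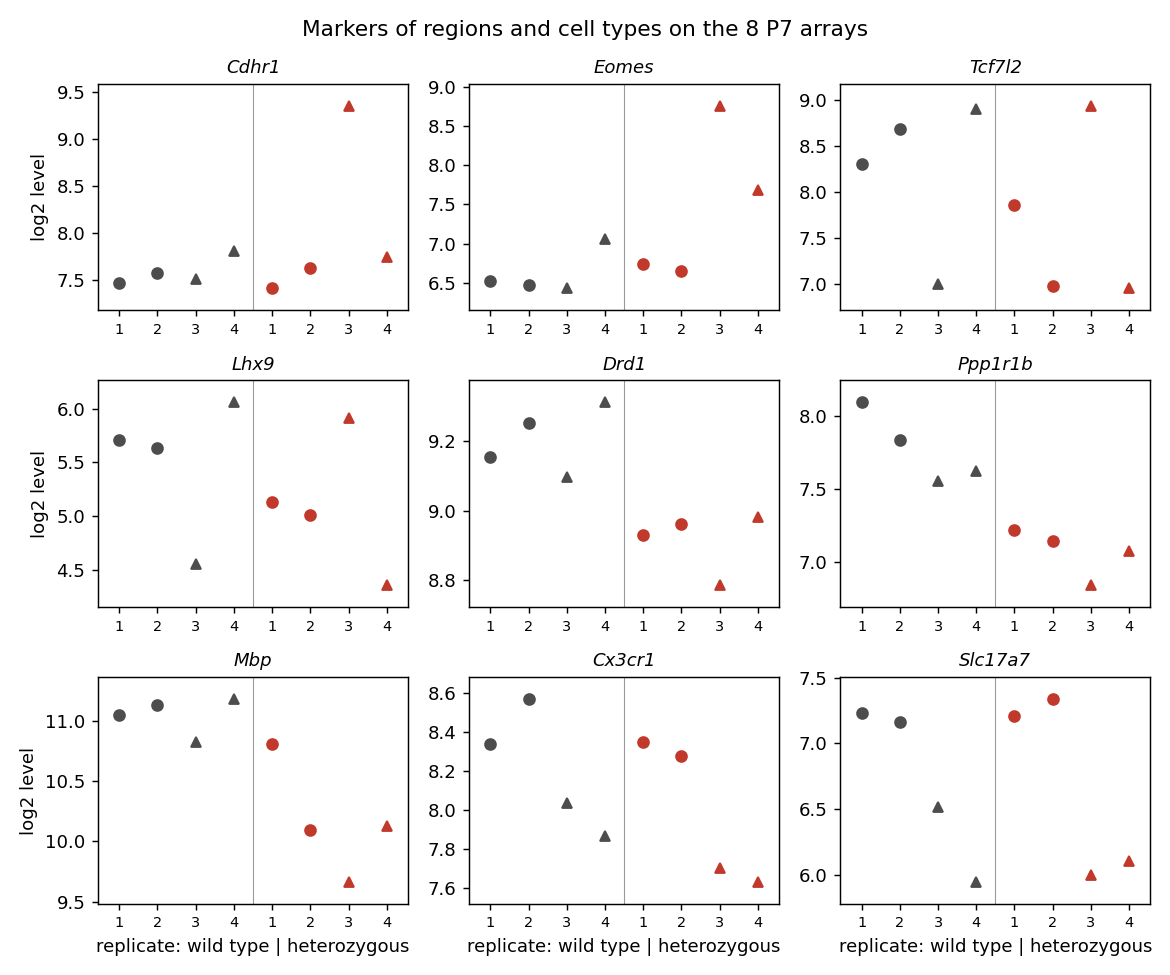
Log2 levels of 9 markers of brain regions and cell types (1 panel each, replicate number on the x axis) on the 4 wild-type (grey) and 4 heterozygous (red) P7 arrays, with circles for replicates 1 and 2 and triangles for 3 and 4. Cdhr1 and Eomes were highest on heterozygous replicate 3, Tcf7l2 and Lhx9 varied within both genotypes, Slc17a7 and Cx3cr1 followed the array batches, and the striatal genes Drd1 and Ppp1r1b and the myelin gene Mbp were lower on the 4 heterozygous arrays than on the 4 wild-type ones.

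The targeted gene was measured by 3 probe sets, and none of them passed an exact test. The brightest, used for the gene throughout, was at log2 7.65 ± 0.06 in wild type and 7.70 ± 0.08 in heterozygotes (SD, n = 4 each), a difference of 0.05 with a two-sided exact permutation p = 0.4. A second probe set was at 6.37 ± 0.25 and 5.90 ± 0.20, a difference of -0.48 (exact permutation p = 0.0571). The dimmest was at 5.03 ± 0.13 and 4.97 ± 0.30 (exact permutation p = 0.686). With 4 arrays against 4 the smallest p this test can give is 0.0286. Where in the transcript these probe sets lie relative to the inactivated part was not known here, so they do not settle whether the labels are right. Among 35 measured genes of the kinase's known surroundings (substrates, DREAM subunits, calcineurin and NFAT genes, related kinases), 0 passed, and their median difference was -0.05 against -0.03 over all genes tested. The calcineurin regulator Rcan3 had a difference of -0.52 and its relative Rcan1 one of -0.22, with adjusted p = 0.283 and 0.347 in the limma fit. The DREAM pocket protein gene Rbl1 had one of 0.29.

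At P7 the heterozygous cortex had less RNA for the neuropeptide precursors Sst, Penk and Tac1, the GABA vesicle transporter Slc32a1, the sodium channel subunits Scn2b and Scn4b, the microglial receptor P2ry12 and the myelin gene Mobp. It had more for the stress-induced gene Ddit4 and for the cell cycle genes Ccnd2 and Rrm2. For Rrm2 this holds for the brightest probe set, while its other probe sets differed by 0.12 and -0.20. In all, 28 genes passed (adjusted p under 0.05 in a limma fit over all 16 arrays), which is 0.219% of the genes tested. Of these, 6 rose (0.0469%) and 22 fell (0.172%). Because these are bulk samples, fewer cells of a type and less RNA per cell cannot be told apart in any of these results. At an unadjusted p under 0.05 there were 1584 genes, of which 406 were higher and 1178 lower, and the median over all genes was -0.03. Of all genes tested 57.5% were lower in heterozygotes, and counts of lower members of a gene list are to be read against that share. All 28 genes had groups that did not overlap, which was so for 991 genes or 7.74% of those tested. All 28 had the same sign in both array batches, as did 61.7% of all genes. Both traits follow in large part from the choice of the 28 genes by their difference on these same arrays.

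The count of genes that passed varied with the arrays that entered the fit. Leaving out wild-type replicates 1, 2, 3 or 4 left 7, 4, 19 or 3 genes, and leaving out heterozygous replicates 1, 2, 3 or 4 left 12, 16, 13 or 7. B3gnt5 passed in all 8 of these fits. Of the genes named at the start of the preceding paragraph, Ddit4, Penk, Sst and Mobp passed in 6, P2ry12 in 5 and Scn2b in 3. Ccnd2, Slc32a1 and Tac1 passed in 1, and Rrm2 and Scn4b in 0. With the array batch as a block 246 genes passed (1.92%), of which 39 were higher (0.305%) and 207 lower (1.62%). All 28 genes were among them. When the replicate number was the block, 101 genes passed (0.789%), among them 27 of the 28. Lzts3 was the exception, at an adjusted p of 0.0521. The batch fit is used below to widen the description of each group, and is named wherever it is used.

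**Figure D2:**
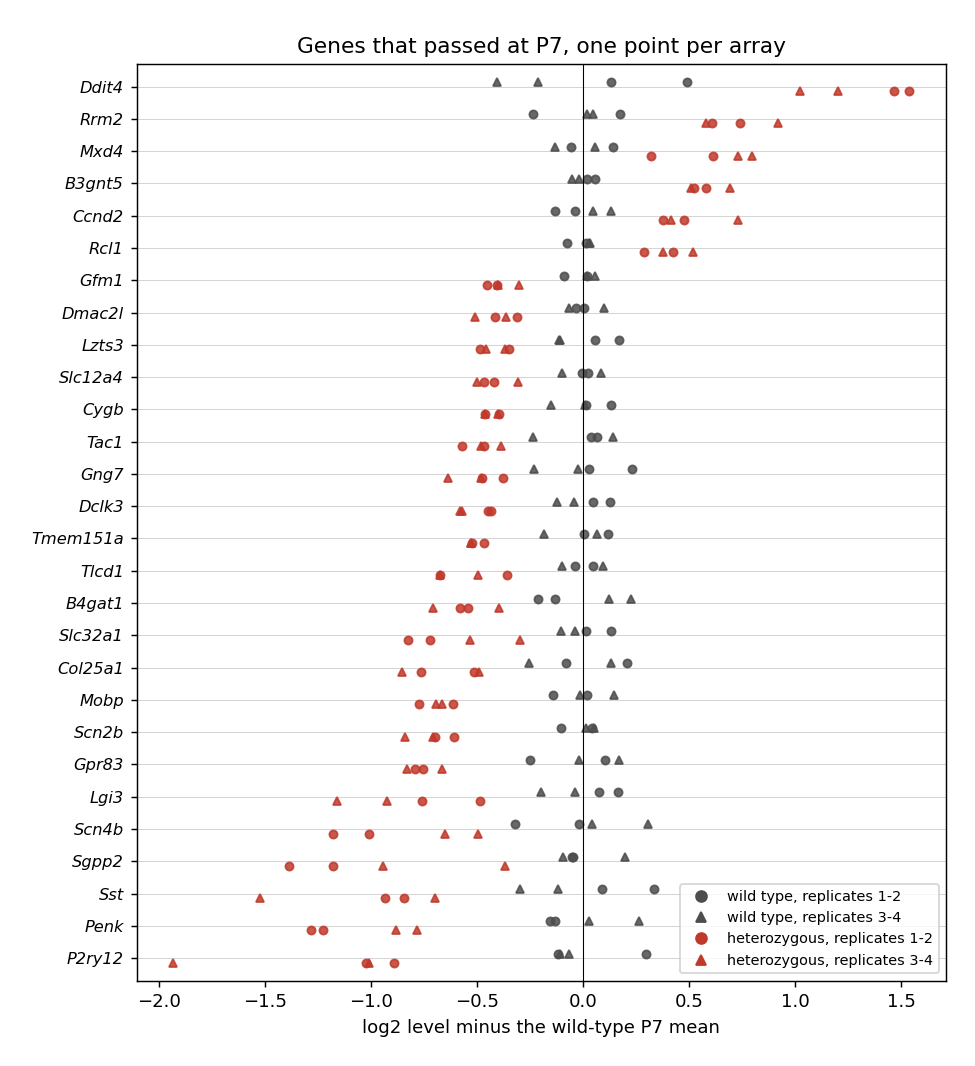
The 28 genes that passed at P7 (y axis) with 1 point per array, as the log2 level minus the wild-type mean (x axis), grey for wild type and red for heterozygotes, circles for replicates 1 and 2 and triangles for replicates 3 and 4. In every gene the 4 red points lie to 1 side of the 4 grey ones. Ddit4 has the largest positive and P2ry12 the largest negative shift, and heterozygous replicate 4 is the lowest point of P2ry12 and of Sst.

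Of the 6 genes that rose, Ddit4 had the largest difference. Ddit4 encodes REDD1, which is induced by hypoxia, glucocorticoids, DNA damage and energy stress and restrains the growth kinase complex mTORC1. Its log2 levels were 8.86, 8.5, 7.97 and 8.16 in wild-type replicates 1 to 4 and 9.84, 9.91, 9.57 and 9.39 in the heterozygotes. Both groups were spread over more than 0.5, and the lowest heterozygote was above the highest wild type. The difference was 1.31 (SE 0.20, limma adjusted p = 0.0157), which is 2.47-fold. Other genes that share its inducers did not pass. Of 25 measured genes of mTORC1 and energy stress, 17 glucocorticoid targets, 22 hypoxia targets and 17 p53 targets, Ddit4 was the only one of each list to pass. The medians of these lists were -0.04, -0.03, -0.09 and 0.02. The glucocorticoid-induced gene Tsc22d3 had a difference of -0.35, and the hypoxia-induced glycolytic gene Aldoa one of -0.33. The p53 targets Trp53inp1 (0.59) and Bbc3 (0.49) passed with the batch block and not without it, at adjusted p = 0.00754 and 0.0156 against 0.0585 and 0.17. Sesn2, another stress-induced restraint on mTORC1, was at 0.41 and Deptor, an mTOR-binding inhibitor, at 0.42, neither passing.

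Of the genes of the cell cycle, Ccnd2, Mxd4 and Rrm2 rose. Ccnd2 encodes cyclin D2, a D-type cyclin of cortical progenitors. It was at log2 10.20, 10.11, 10.37 and 10.29 in wild type and at 10.72, 10.62, 10.66 and 10.97 in heterozygotes. The lowest heterozygote was above the highest wild type. The difference was 0.50 (SE 0.09, limma adjusted p = 0.0409), and the 6 other probe sets of the gene gave differences between 0.21 and 0.45. Mxd4, a partner of MAX that opposes MYC, rose by 0.61 (SE 0.11, limma adjusted p = 0.0374). Its levels were 9.22, 9.02, 9.13 and 8.95 against 9.40, 9.69, 9.81 and 9.88, so that 1 heterozygote came close to the wild types. Dimmer probe sets of Mxd4 differed by 0.37 and 0.04, and a further probe set below the floor by 0.33. Rrm2 encodes the S-phase subunit of ribonucleotide reductase, which makes deoxynucleotides. Its brightest probe set rose by 0.71 (SE 0.14, limma adjusted p = 0.0486), from 9.15, 8.74, 8.99 and 9.02 to 9.71, 9.58, 9.89 and 9.55. That probe set carries the _x_ mark of possible cross-hybridization, and the other Rrm2 probe sets differed by 0.12 and -0.20, so the call rests on 1 probe set.

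Of 30 measured genes of S phase to mitosis, Rrm2 was the only one to pass, 25 of 30 were higher, and the median was 0.13. It was 0.19 in the first batch and 0.07 in the second, and the list's median at P0 was 0.28. With the batch block 2 of the 30 genes rose, Rrm2 and the chromatin protein gene Hmgb2. The difference of Hmgb2 was 0.64, with a limma adjusted p of 0.0577 without the block and 0.0231 with it. The replication helicase genes Mcm4 and Mcm6 were both at 0.38 and the proliferation antigen Mki67 at 0.31, while Pcna (-0.04) and Cdk1 (-0.05) were not higher. The mean level of the list over its genes was 7.17 to 7.22 in wild type and 7.31 to 7.40 in heterozygotes, with no overlap. Of 24 G1 regulators, 2 rose (Ccnd2 and Mxd4) and none fell, and the median was 0.01. The cyclin D1 gene Ccnd1 was at -0.15 and the cyclin D3 gene Ccnd3 at -0.01.

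Genes of young neurons had a smaller median difference. Of 27 measured, 0 passed, 19 were higher and the median was 0.10 (0.11 and 0.10 within the batches), with list means of 11.16 to 11.21 in wild type and 11.30 to 11.32 in heterozygotes. The transcription factors Sox11 (0.52) and Sox4 (0.41), which act in newly born neurons, rose with the batch block, at adjusted p = 0.0173 and 0.0312, and had adjusted p = 0.0549 and 0.108 without it. Of 21 genes of radial glia and progenitors, 0 passed by either fit and the median was 0.08. The intermediate progenitor gene Eomes had the largest difference of that list, 0.83, with levels of 8.76 on heterozygous replicate 3, 7.68 on replicate 4, and 6.43 to 7.06 on the other 6 arrays. Eomes also marks mitral and tufted cells, and replicate 3 is the array with the high olfactory bulb markers. Of 16 olfactory bulb genes 0 passed by either fit, the median was 0.24, and without heterozygous replicate 3 it was 0.20. Within the batches it was 0.07 in the first and 0.31 in the second. The list means of the olfactory bulb genes were 8.18 to 8.52 in wild type and 8.42 to 9.03 in heterozygotes. Their part in the progenitor values was not tested.

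The other genes that rose were B3gnt5 and Rcl1. B3gnt5 encodes the glycosyltransferase that starts lacto-series glycolipids. It had the smallest spread of the 28 in wild type, with 8.78, 8.75, 8.68 and 8.71, and was at 9.31, 9.25, 9.42 and 9.24 in heterozygotes. The gap between the groups was larger than the spread within either. The difference was 0.57 (SE 0.07) and the limma adjusted p of 0.00855 was the lowest of all genes tested. Rcl1, which encodes a nucleolar protein of small ribosomal subunit assembly, rose by 0.40 (SE 0.08, limma adjusted p = 0.0486). In the same list of 27 sphingolipid and glycolipid genes as B3gnt5, Sgpp2 fell by 0.97 (SE 0.18, limma adjusted p = 0.0422). It encodes a phosphatase that removes sphingosine-1-phosphate. Its levels were 8.08, 8.08, 8.04 and 8.33 in wild type and 6.74, 6.95, 7.76 and 7.19 in heterozygotes, with replicate 3 the highest of the heterozygotes. The kinase that makes sphingosine-1-phosphate, Sphk1, was at 0.36 (adjusted p = 0.347), and the list's median was -0.05.

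**Figure D3:**
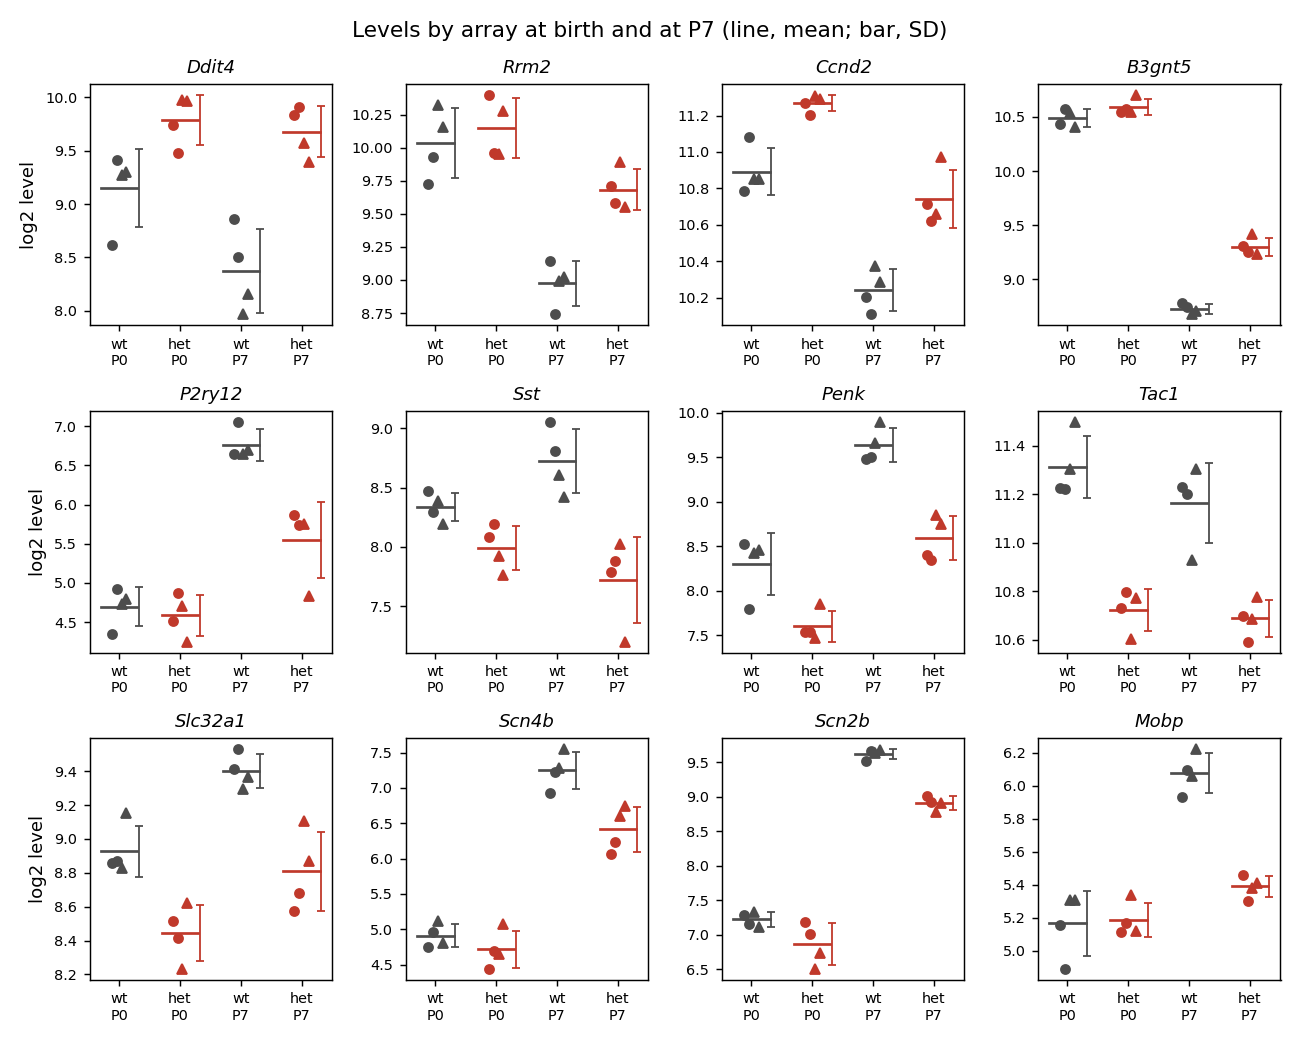
Log2 levels of 12 of the genes that passed at P7 in the 4 groups (x axis, wild type grey, heterozygous red, P0 then P7), 1 point per array, with the mean as a line and the SD as a bar. In Tac1, Ddit4, Ccnd2 and Slc32a1 the genotypes do not overlap at either age, and of these only Tac1 passed at P0. P2ry12 and Scn4b lie below the floor for testing (5.15) at P0 and Mobp lies at it, so their overlap there says nothing about genotype. In Ddit4, Rrm2, Ccnd2 and B3gnt5 the wild-type level is lower at P7 than at P0 and the heterozygous P7 level lies between the wild-type levels of both ages or above them.

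Of the neuropeptide precursors, Sst, Penk and Tac1 fell. Sst encodes somatostatin, the peptide of a major class of dendrite-targeting interneurons. It was at log2 9.05, 8.81, 8.60 and 8.42 in wild type and at 7.79, 7.88, 8.03 and 7.20 in heterozygotes. No heterozygote reached the lowest wild type, and replicate 4 was lowest in both genotypes. It fell by 1.0 (SE 0.16, limma adjusted p = 0.0213), which is 2-fold. Penk, the precursor of the enkephalins, fell by 1.05 (SE 0.16, limma adjusted p = 0.0157), from 9.48, 9.50, 9.66 and 9.90 to 8.41, 8.35, 8.85 and 8.75. In both genotypes replicates 3 and 4 were the higher ones, and the differences within the 2 batches were -1.11 and -0.98. Tac1, the precursor of substance P, was at 11.23, 11.20, 10.93 and 11.30 against 10.70, 10.59, 10.69 and 10.78, and fell by 0.48 (SE 0.09, limma adjusted p = 0.0486). Of 21 measured neuropeptide and peptide-processing genes these 3 fell, 0 rose and 19 were lower, and the list's median was -0.34. Their list means were 8.70 to 8.86 in wild type and 8.32 to 8.46 in heterozygotes. With the batch block 5 fell, the 2 additional ones being Vip (-0.81, adjusted p = 0.0188), the peptide of a class of interneurons that inhibit other interneurons, and the dynorphin precursor Pdyn (-0.49). Neither passed without the block, and for Vip the adjusted p was then 0.0707. The granin Scg2 was at -0.42, cholecystokinin (Cck) at -0.34 and Npy at -0.43, while Cort was at 0.16.

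The stretches before the transcription starts of Sst and Tac1 are shown because their promoters hold well-known motifs, that of CREB-family factors and that of bHLH factors. They are RefSeq sequences (GRCm38.p6) of 150 bases up to the base before the start, 5′ to 3′ on the gene's strand, with the motif in capitals. Sst lies on chr16:23890845-23890994, minus strand, and Tac1 on chr6:7554911-7555060, plus strand.
Sst: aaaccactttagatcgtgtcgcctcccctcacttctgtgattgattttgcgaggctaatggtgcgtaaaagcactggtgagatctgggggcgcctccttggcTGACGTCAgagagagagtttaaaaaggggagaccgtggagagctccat
Tac1: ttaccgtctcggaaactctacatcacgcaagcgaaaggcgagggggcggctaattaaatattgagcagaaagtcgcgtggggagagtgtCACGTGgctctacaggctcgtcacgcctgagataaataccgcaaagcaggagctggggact
The capitals mark a full cyclic AMP response element (CRE, TGACGTCA) in Sst, which begins 48 bases before the start, and an E-box (CACGTG) in Tac1, which begins 61 bases before it. In windows from 250 bases before to 50 after a start, on both strands, the CRE was present in 1.79% of all 32851 RefSeq windows and in 3.46% of the tested genes that had a window. Of the 23 genes among the 28 that had a window, only Sst held it. The E-box was in 7.15% of all windows, in 11.5% of tested genes and in 5 of the 23 genes (Gng7, Mxd4, P2ry12, Sgpp2 and Tac1). The E2F motifs TTTCCCGC and TTTGGCGC were in 1.56% of all windows and in 0 of the 23.

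Beyond Sst, the GABA vesicle transporter Slc32a1 fell by 0.59 (SE 0.12, limma adjusted p = 0.0493). Its levels were 9.42, 9.53, 9.30 and 9.37 in wild type and 8.58, 8.68, 9.10 and 8.87 in heterozygotes. The groups did not overlap, and heterozygous replicate 3 came nearest to wild type. In the first batch the difference was -0.85 and in the second -0.34, and the 3 dimmer probe sets of the gene differed by 0.01 to 0.17. The GABA-synthesizing enzymes Gad1 and Gad2 were at -0.39 and -0.40 and did not pass. Of 36 measured interneuron genes 2 fell (Sst and Slc32a1), 0 rose and 28 were lower. Their median was -0.24, at -0.30 in the first batch and -0.04 in the second, and the list means of the groups overlapped (8.28 to 8.42 in wild type and 8.13 to 8.32 in heterozygotes). With the batch block Vip and the calcium buffer Calb1 (-0.56, adjusted p = 0.0149) fell too. The fate genes Dlx1 (0.40), Dlx2 (0.52) and Sp8 (0.73) were higher, and all 3 are also olfactory bulb genes. Sp8 was at 9.15 on heterozygous replicate 3 and 8.71 on replicate 4, against 7.38 to 8.41 on the other 6 arrays. Without heterozygous replicate 3 the median of the interneuron list was -0.25. The early interneuron gene Lhx6 was at -0.35 and Pvalb, the marker of fast-spiking interneurons, at -0.25. On the receiving side, 0 of 19 genes of inhibitory synapses passed and 18 were lower, with a median of -0.13. The chloride extruder Slc12a5, which makes GABA inhibitory as neurons mature, was at -0.40, with an adjusted p of 0.0707, and fell with the batch block (0.0251).

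Genes enriched in striatal-type neurons had the lowest median of the lists with at least 5 measured genes. Of 26 measured, 5 fell, 0 rose and 24 were lower, and the median was -0.37, with -0.37 within each batch. Those that fell were Penk, Tac1, the sodium channel subunit Scn4b, the G protein subunit Gng7 (-0.49) and the G protein-coupled receptor Gpr83 (-0.76). With the batch block 10 fell, among them the dopamine signalling protein Ppp1r1b (DARPP-32, -0.70), the retinoid receptors Rarb (-0.75) and Rxrg (-0.55) and Rgs7bp (-0.44). Ppp1r1b was at 8.09, 7.84, 7.56 and 7.62 in wild type and at 7.22, 7.15, 6.85 and 7.08 in heterozygotes. The dopamine receptor Drd1, at 9.16, 9.25, 9.10 and 9.31 against 8.93, 8.96, 8.79 and 8.98, was lower on every heterozygous array too. Its difference of -0.29 did not pass. Drd2 was at -0.07, but its means (5.22 in wild type and 5.15 in heterozygotes) lay at the floor for testing. A difference is hard to measure at such levels. The list means were 8.16 to 8.38 in wild type and 7.90 to 7.96 in heterozygotes. The cortex does express several of these genes itself, and how much striatal tissue each dissection held was not tested. Markers of the thalamus, hypothalamus and midbrain had a median of -0.21 with overlapping list means (7.02 to 7.40 and 6.86 to 7.37), those of the hippocampus one of -0.07, and 0 of either passed.

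Of the ion channel genes, the sodium channel subunits Scn2b and Scn4b fell. Scn2b, an accessory subunit of voltage-gated sodium channels, was at 9.52, 9.66, 9.64 and 9.67 in wild type and at 9.02, 8.93, 8.78 and 8.92 in heterozygotes. Both groups were tight and well apart. The difference was -0.71 (SE 0.12, limma adjusted p = 0.0213), although a dimmer probe set of the gene differed by -0.20 and one below the floor by 0.11. Scn4b, the subunit that shapes resurgent sodium current, fell by 0.83 (SE 0.16, limma adjusted p = 0.0489). It was at 6.93, 7.23, 7.29 and 7.55 against 6.07, 6.24, 6.60 and 6.75, so that the highest heterozygote lay just below the lowest wild type. Of 40 measured channel genes 2 fell, 0 rose, 27 were lower and the median was -0.12. With the batch block 7 fell, the others being Kcnab1 (-0.48), Cacna2d3 (-0.48), Kcnk1 (-0.42), Kcnip1 (-0.41) and Kcna1 (-0.39). Lgi3 encodes a secreted protein that binds ADAM22-family receptors at axons and synapses next to Kv1 potassium channels. It fell by 0.83 (SE 0.13, limma adjusted p = 0.0157), from 7.84, 7.93, 7.72 and 7.56 to 7.00, 7.28, 6.60 and 6.84. Of 14 genes of the LGI, ADAM and Kv1 group it was the only one to fall. Its relative Lgi1, an epilepsy gene, was at -0.37, and it fell with the batch block (adjusted p = 0.0473) along with Kcna1 and Kcnab1. The neurofilament genes Nefl (-0.41), Nefm (-0.57) and Nefh (-0.62), which build the axon's cytoskeleton, fell with the batch block at adjusted p = 0.0188, 0.0455 and 0.0438, and had adjusted p between 0.108 and 0.109 without it.

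Among glial genes, P2ry12 of microglia had the largest difference. P2ry12, the purinergic receptor by which resting microglia sense nucleotides, was at 6.64, 7.06, 6.65 and 6.69 in wild type and at 5.87, 5.73, 5.75 and 4.83 in heterozygotes. Heterozygous replicate 4 was by far the lowest and the other 3 were close together, below every wild type. The difference was -1.21 (SE 0.20, limma adjusted p = 0.0213). The value on heterozygous replicate 4, 4.83, is below the floor for testing, so the size of this difference is not exact. The gene's mean over all 16 arrays, by which it passed the floor, was 5.40, while its P0 means (4.70 and 4.58) were below the floor. Its mean was 6.76 in wild type at P7, and without those arrays the gene's mean would lie below the floor. P2ry12 thus entered the test through the group in which it is high, so its entry was not independent of the difference tested. Of 26 measured microglial genes P2ry12 was the only one to fall, 0 rose, 18 were lower (57.5% over all genes) and the median was -0.17. With the batch block the related receptor gene P2ry13 (-0.51) fell too. The protease gene Lgmn was at -0.59 and Tmem119 at -0.35, while Cx3cr1 (-0.21), Csf1r (-0.06) and Trem2 (-0.05) had smaller differences. The other 8 genes of the list were higher. Among these the largest differences were those of Tgfbr1 (0.23), Sall1 (0.20), Tyrobp (0.20) and C1qb (0.17), and none passed. The list means, P2ry12 included, were 7.30 to 7.51 in wild type and 7.15 to 7.28 in heterozygotes. They did not overlap, but the gap is small enough for P2ry12 alone to make it. Genes of activated and perivascular macrophages had a median of 0.06, with 0 of 14 passing.

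Mobp, a structural gene of compact myelin, fell by 0.69 (SE 0.10, limma adjusted p = 0.0156). It was at 5.93, 6.09, 6.06 and 6.22 in wild type and at 5.46, 5.30, 5.38 and 5.41 in heterozygotes. These levels are close to the floor set for testing (5.15), and the groups were tight and apart. The 4 other probe sets were below the floor over all 16 arrays and differed by -2.25, -1.01, -0.15 and -0.02. That of -2.25 was at 7.06, 7.69, 6.98 and 7.92 in wild type and at 6.14, 4.38, 3.97 and 6.15 in heterozygotes, so 2 of its values are below the floor and its size is not exact. Mobp was the only one of 17 measured myelin genes to fall, all 17 were lower, and the median was -0.25 (-0.27 and -0.21 within the batches). Mbp, the myelin basic protein gene, was at 11.05, 11.13, 10.83 and 11.18 in wild type and at 10.81, 10.09, 9.66 and 10.13 in heterozygotes. Heterozygous replicate 1 lay next to the wild types. The difference of -0.87 (SE 0.26) had an adjusted p of 0.174. The tetraspanin Tspan2 (-0.46) fell with the batch block, at an adjusted p of 0.037. Of 18 measured genes of the precursor cells of this lineage 0 passed and the median was -0.04, with Pdgfra at -0.12 and Sox10 at 0.08. The matrix proteoglycan gene Vcan (0.27) rose with the batch block, at an adjusted p of 0.0417. Of 27 astrocyte genes 0 passed and 23 were lower, with a median of -0.17. S100b (-0.78), Acsbg1 (-0.60), Slc7a10 (-0.52) and Aldoc (-0.52) fell with the batch block, while Gfap was at 0.46 and Slc1a3 at 0.09.

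**Figure D4:**
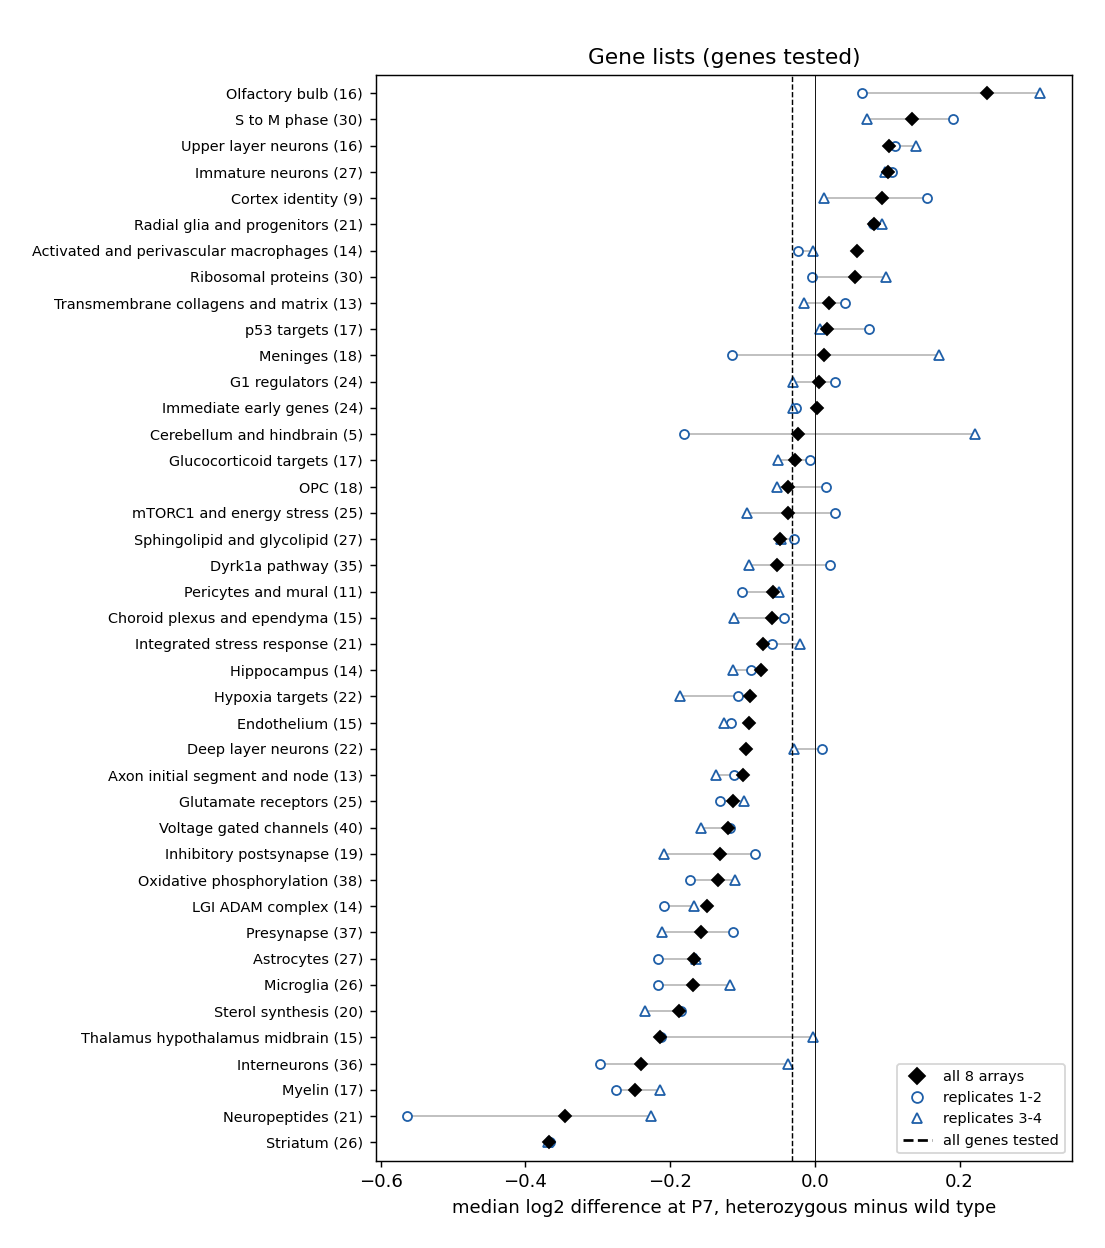
Median log2 difference at P7, heterozygous minus wild type (x axis), of each gene list with at least 5 measured genes (y axis, number measured in brackets), over all 8 arrays (diamonds) and within replicates 1 and 2 (circles) and 3 and 4 (triangles). The dashed line is the median of all genes tested (-0.03). The striatal, neuropeptide, myelin and interneuron lists lie lowest and the olfactory bulb and S phase to mitosis lists highest, and the interneuron, thalamic and neuropeptide medians differ most between the batches among the low ones.

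The remaining genes that fell are of varied function. Col25a1, a membrane collagen of neurons, fell by 0.66 (SE 0.12, limma adjusted p = 0.0374) by its brightest probe set, while a dimmer one differed by 0.18. By the brightest, the lowest wild type was at 9.54 and the heterozygotes at 9.28, 9.03, 9.30 and 8.94. B4gat1, a glycosyltransferase that extends the sugar chain of dystroglycan, fell by 0.56 (SE 0.10, limma adjusted p = 0.03), at -0.39 in the first batch and -0.73 in the second. The membrane protein genes Tlcd1 and Tmem151a fell by 0.55 and 0.51. Dimmer probe sets of Tlcd1 differed by -0.11 and -0.09, and a further probe set below the floor by 0.05. The kinase gene Dclk3 fell by 0.51 and the globin gene Cygb by 0.43. The potassium-chloride cotransporter gene Slc12a4 fell by 0.42 and the postsynaptic gene Lzts3 by 0.41. Dmac2l and Gfm1 serve mitochondria, the second as the organelle's translation elongation factor. They fell by 0.40 and 0.39, and a dimmer Gfm1 probe set differed by -0.17. Beside these, of 38 genes of oxidative phosphorylation 0 passed, 35 were lower and the median was -0.13. Atp5g1 and Ndufs1 (both -0.39) fell with the batch block.

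The genes that passed with the batch block and not without it numbered 218, of which 33 were higher and 185 lower. Those with the lowest p in each direction included, among the higher ones, the heparan sulfate proteoglycan gene Gpc2 (0.86), the PI3 kinase regulatory subunit Pik3r3 (0.63), the giant cadherin Fat4 (0.53), the transcription factor Myb (0.48) and the cohesin subunit Rad21 (0.38). Among the lower ones were the zinc finger gene Zmat4 (-0.88), the epoxide hydrolase Ephx2 (-0.63), the heme transporter Slc48a1 (-0.50), the nicotinic receptor modulator Lypd1 (-0.50) and the vesicle GTPase Rab27b (-0.45). Gpc2 was at 4.71, 4.64, 4.14 and 4.09 in wild type and at 5.49, 5.12, 5.24 and 5.18 in heterozygotes. Every wild type was below the floor for testing (5.15), which the gene passed through its P0 levels (7.17 and 7.40), so the size of its difference is not exact.

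The P7 differences were set beside those at P0, which come from other mice. Of the 28 genes, 27 differed in the same direction at P0. Mobp, at 0.02, was the exception. Over all genes tested 55.6% had the same sign at both ages. At P0 88 genes passed (0.687%), and 4 of the 28 were among them: Gpr83, Tlcd1, Tmem151a and Tac1. The size was larger at P7 in 27 of the 28, all but Tac1, but the genes were chosen at P7 and larger values there follow in part from that choice. The test of the difference between the ages found 0 genes (0%) by limma with adjustment over all genes, 995 at an unadjusted p under 0.05, and 15 of the 28 among those. B3gnt5 had differences of 0.11 at P0 and 0.57 at P7, with an unadjusted p of 0.000356 for the difference between them. For P2ry12 and Scn4b both P0 means were below the floor (4.70 and 4.58, and 4.91 and 4.71), and for Mobp they were at it (5.17 and 5.18). These 3 genes are among the 15, but a P0 difference is hard to measure at such levels, so their comparison of the ages is not informative. Tac1 (-0.59 and -0.48), Tmem151a (-0.47 and -0.51) and Gng7 (-0.39 and -0.49) had close values at both ages, with unadjusted p between 0.411 and 0.729 for the difference. The ciliary genes Foxj1 and Ak7 had opposite signs: 0.30 and 0.33 at P7, neither passing (adjusted p = 0.109 and 0.335), and -0.31 and -0.61 at P0. Foxj1 rose at P7 with the batch block (adjusted p = 0.0425) and Ak7 did not pass (0.118).

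**Figure D5:**
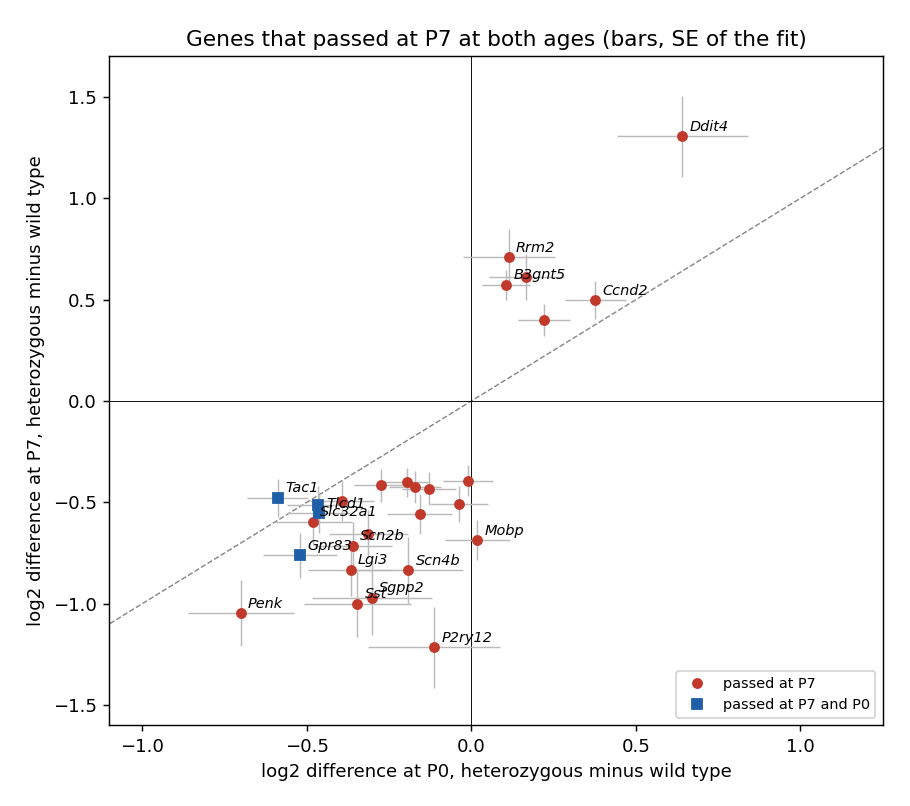
Log2 difference, heterozygous minus wild type, at P0 (x axis) and at P7 (y axis) for the 28 genes that passed at P7, with the SE of the fit as bars and the line of equal differences dashed. Blue squares are the 4 genes that passed at both ages. All points but Mobp have the same sign at both ages, and only Tac1 is nearer to 0 at P7 than at P0.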

How the data were processed

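Total RNA of cortex was labelled in 2 cycles and hybridized to 1 array per mouse, per the labels' protocols. The authors deposited 1 log2 value per probe set and array, already normalized by a method not given in the sources used here. Of 45037 probe sets, 34945 had 1 gene symbol, 932 several and 9160 none, and 34741 were matched to the reference gene table. A gene's probe set was the one of highest mean over all 16 arrays (18193 genes), and 12801 genes at or above the 40th percentile of all probe set means (5.15) were tested. limma 3.58.1 in R 4.3.3 fitted 4 group means (12 residual and 4.59 prior degrees of freedom, two-sided), with Benjamini-Hochberg adjustment and a threshold of 0.05. List medians and counts were described without a test of the list. Array batch and replicate number were blocks in further fits. The replicate number was tried as a pairing. Equally numbered P7 arrays deviated together (r between 0.115 and 0.379), but so did other arrays of the same batch (0.369 to 0.485). Arrays of different batches did not (-0.436 to -0.196). By this check equal numbers showed no closer tie than a shared batch. Named genes are Dyrk1a, all that passed, up to 4 per list by lowest unadjusted p, and up to 10 per direction that passed with the batch block alone. Further list members given as values (such as Pcna or Csf1r) were chosen after their values were seen. The comparison and the gene lists were chosen with earlier results of these data known. Promoter windows were read from RefSeq (GRCm38.p6). The procedure was also run on simulated data with independent noise on each array. That simulation held no array batches and no differences in dissection, so it does not speak to either. Figures used Python 3.11.15 and matplotlib 3.10.9. Alternatives covered blocks, arrays left out, normalization, the filter, the choice of probe set and the variance model. Detection calls and raw image files were not used here.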

Additional observations from a re-analysis of the deposited data

Results flagged for a closer look

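In 9 of 146 groups of 4 arrays looked at (each gene that passed, the probe sets of Dyrk1a, and the mean level of each gene list), 1 array lay far from the other 3 by Dixon's test. Chance flags about 1 group in 20. P2ry12, the microglial receptor, had such an array in both genotypes: wild-type replicate 2 was at log2 7.06 while the others were at 6.64 to 6.69, and heterozygous replicate 4 was at 4.83 while the others were at 5.73 to 5.87. The 4.83 adds to the difference reported for P2ry12 and is below the floor for testing, so the size of that difference is not exact. Rcl1 was at 7.87 on wild-type replicate 2 against 7.96 to 7.98. Sgpp2 was at 8.33 on wild-type replicate 4 against 8.04 to 8.08. Tmem151a was at 8.65 on heterozygous replicate 2 against 8.59 on each of the others.

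Of the lists, the mean level of glutamate receptor genes was 9.18 on heterozygous replicate 3, the array with high olfactory bulb markers, against 9.29 to 9.31 on the other heterozygotes. Wild-type replicate 3 was lowest for hippocampal genes (7.90 against 8.04 to 8.05) and for glucocorticoid targets (8.49 against 8.58 to 8.59). Heterozygous replicate 4 was lowest for p53 targets (8.09 against 8.23 to 8.24).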

How the results depend on the processing

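The 28 genes kept their direction in each fit that tested them (26 were tested with the mean of all probe sets and 21 with the 60th percentile as the filter). The count of 28 became 101 with the replicate block, 246 with the array batch block and 12 with the description code as a block. It was 7 with only the P7 arrays, 3 with only replicates 1 and 2, and 3 with only replicates 3 and 4. With the level of Eif2s3y, which follows sex, as a covariate it was 10. Leaving out 1 P7 array at a time gave 3 to 19. Quantile normalization again gave 24 genes, 66.7% of them lower against 78.6%. A choice of probe set and floor by the P7 arrays alone, added after seeing the data, gave 26. The difference of the ages gave 0 genes in all fits made. Values that changed sign were those of genes that had not passed: with the mean of all probe sets Dyrk1a was at -0.16, Rps9 at 0.037 and Snap25 at 0.0015, without probe sets marked _x_ or _s_ Meis2 was at -0.046, and with the probe set chosen on P7 arrays Rps9 was at 0.49. The cause was not tested, except that the fits on fewer arrays have fewer degrees of freedom.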

Other observations

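Some gene groups not described above had medians away from that of all genes (-0.03) while 0 of their genes passed. Of 20 genes of sterol synthesis 0 passed by either fit, 17 were lower and the median was -0.19. Their mean level was 9.74 to 9.87 in wild type and 9.55 to 9.72 in heterozygotes. Tm7sf2 (-0.48) and Ebp (-0.40), enzymes late in cholesterol synthesis, had the lowest p of that list, with limma adjusted p = 0.13 and 0.191. Of 37 presynaptic genes 0 passed, 29 were lower and the median was -0.16. The vesicle GTPase Rab3c (-0.40) fell with the batch block, and the SNARE-binding Cplx1 was at -0.31 and the dynamin Dnm1 at -0.28. Of 25 genes of glutamate receptors and their scaffold 0 passed, 21 were lower and the median was -0.11.

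Genes of upper-layer neurons had a median of 0.10 (11 of 16 higher) and those of deep layers one of -0.10 (14 of 22 lower, against 57.5% of all genes), and 0 of either passed. Immediate early genes, which rise with recent neuronal activity, had a median of 0.003 with 13 of 24 higher, and Nptx2 (-0.46) fell with the batch block. Ribosomal protein genes had a median of 0.06 and 0 of 30 passed.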
